A study of Mus musculus with 6 samples.

Results

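The Hox genes of mouse aorta were described by cluster and paralog number: the 39 protein-coding genes named Hoxa, Hoxb, Hoxc or Hoxd plus a number, of 55401 genes in the deposited count table. They were chosen by name alone. Libraries came from IL16-/-ApoE-/- mice, here the double mutants, and were set against those of ApoE-/- mice, with 3 samples in each group. Both groups carry the ApoE-/- genotype; ApoE is the apolipoprotein that clears remnant lipoproteins, and mice without it develop plaques on a fatty diet. The double mutants also carry IL16-/-, and IL-16 is a cytokine that attracts CD4+ cells. All mice were 8 weeks old when a high-fat diet began and the aorta was taken after 24 weeks of it. A -/- genotype is carried by every cell of the animal, so a difference could arise in any cell type or during development. Which stretch of the aorta was taken, whether surrounding tissue was trimmed, and whether each sample was 1 mouse or a pool was not stated in the sources read, so the p-values cover the spread of these samples and perhaps not that of animals.

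Hox proteins are homeodomain transcription factors that give cells along the head-to-tail axis of the embryo their position. The genes lie in 4 clusters, and their order along the chromosome follows the order of the body regions that express them, so that paralogs of low number (anterior) mark the hindbrain and pharyngeal arches, and paralogs of high number (posterior) mark the trunk, limbs and tail. Adult smooth muscle cells and fibroblasts keep part of this pattern, and the arch and the descending aorta differ in it. A bulk library therefore mixes the Hox codes of all cells and stretches of wall it holds, and in such samples fewer cells of a type and less RNA per cell cannot be told apart.

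In the GENCODE M21 annotation of GRCm38, which is not from the authors' files, the Hoxa genes lie on chromosome 6, and the Hoxb genes span chromosome 11 from 96194316 to 96368256, the Hoxc genes chromosome 15 from 102921103 to 103036852 and the Hoxd genes chromosome 2 from 74668310 to 74765142. MicroRNA and promoter sequences from these stretches are shown first, as regulatory sequence of the members whose values follow. The clusters hold microRNA genes among the Hox genes: Mir10a beside Hoxb4, Mir10b within the span of Hoxd4, Mir196a-1 beside Hoxb9, Mir196b within the span of Hoxa9, and Mir196a-2 between Hoxc9 and Hoxc10. The mature sequences of the 5p arms of these genes from RefSeq (GRCm38.p6) fall into 2 families by seed, here bases 2 to 8, in capitals. Mir615, within the span of Hoxc5, has a 5p arm with another seed (GGGGUCC), which is not shown. The 3p arms have other seeds and are not shown.
miR-10a-5p: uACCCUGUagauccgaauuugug
miR-10b-5p: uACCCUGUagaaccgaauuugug
miR-196a-5p: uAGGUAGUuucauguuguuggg
miR-196b-5p: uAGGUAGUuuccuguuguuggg
A match to the miR-196 seed (ACTACCT in the 3′ UTR, this strand only) was found in 9 of 39 Hox genes, or 23.1%, Hoxa5, Hoxa7, Hoxb6 and Hoxc8 among them, against 6.48% of 20979 genes with a 3′ UTR. A match to the miR-10 seed (ACAGGGT) was found in 4 of 39, or 10.3%, Hoxa3 and Hoxb3 among them, against 13.01% of all genes. Hoxb8 carries the best-known site of the family, which pairs with miR-196a along nearly its whole length. Read from the GENCODE transcript on chromosome 11 (GRCm38), 21 of its 22 bases are complementary to miR-196a-5p, and the base that is not is in lower case.
Hoxb8 site: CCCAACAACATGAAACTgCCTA
Mature microRNAs are not captured by oligo(dT) beads, and the microRNA gene rows held 0 to 14 counts per library, so nothing can be read here about their levels.

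Promoters (250 bases before to 50 after the RefSeq start) were available for 22 Hox genes, with 24 promoters in all. Those of an anterior gene (Hoxa2), a posterior gene of the same cluster (Hoxa9) and the microRNA-paired Hoxb8 are printed along the gene's own strand, since the levels of these genes by library are given further on.
Hoxa2, chr6:52164782-52165081, minus strand: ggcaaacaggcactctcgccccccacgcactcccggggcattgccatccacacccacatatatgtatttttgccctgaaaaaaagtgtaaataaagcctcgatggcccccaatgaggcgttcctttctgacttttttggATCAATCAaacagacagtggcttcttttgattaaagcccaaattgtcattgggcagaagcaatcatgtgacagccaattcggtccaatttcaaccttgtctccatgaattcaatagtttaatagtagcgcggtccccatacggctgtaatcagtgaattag
Hoxa9, chr6:52227321-52227620, minus strand: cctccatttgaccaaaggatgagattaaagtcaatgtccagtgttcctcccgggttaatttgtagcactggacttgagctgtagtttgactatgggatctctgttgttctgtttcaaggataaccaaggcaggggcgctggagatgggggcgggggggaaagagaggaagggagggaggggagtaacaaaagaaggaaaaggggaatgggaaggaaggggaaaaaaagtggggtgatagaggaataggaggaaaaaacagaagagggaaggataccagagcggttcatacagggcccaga
Hoxb8, chr11:96281655-96281954, plus strand: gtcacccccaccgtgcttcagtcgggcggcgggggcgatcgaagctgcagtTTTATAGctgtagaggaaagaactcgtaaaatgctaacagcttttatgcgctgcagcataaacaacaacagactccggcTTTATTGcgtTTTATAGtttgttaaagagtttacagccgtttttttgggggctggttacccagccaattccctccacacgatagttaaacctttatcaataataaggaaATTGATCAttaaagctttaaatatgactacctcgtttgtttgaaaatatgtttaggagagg
Capitals mark TGATNNAT (letters that Hox and Pbx proteins bind together), TTTATNG (letters bound by posterior Hox and by Cdx proteins) and TATAAA, each on either strand; the complement of TATAAA can overlap TTTATNG. The windows of Hoxa2 and Hoxb8 each hold TGATNNAT once, and that of Hoxa9 holds none of the 3 motifs. TGATNNAT occurred in 4 of 24 Hox promoters, or 16.7%, and in 8.85% of all 32851 promoters. TTTATNG occurred in 2 of 24, or 8.33%, against 10.9%, and TATAAA in 4 of 24, or 16.7%, against 13.6%. Hox promoters held a median of 14.5 CpG pairs (range 4 to 45), against 7 in all promoters. A match is a description of these letters and says nothing of binding in the aorta.

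Library totals were 42861980 to 47208779 counts in double mutants and 65730552 to 85568269 in ApoE-/- mice, so 3 counts, which a count of 0 still allows, correspond to 0.0630 to 0.0698 CPM (counts per 1e6 counts) in double mutants and to 0.0358 to 0.0430 CPM in ApoE-/- libraries. Such floors and all intervals below cover counting error only. Il16 had 7.93, 12.1 and 12.2 CPM in double mutants, against 28.3, 28.7 and 15.1 CPM in ApoE-/- libraries, and the groups did not overlap. Apoe transcripts were present in all 6 libraries, at 138, 183 and 137 CPM in double mutants, against 45.0, 24.9 and 20.9 CPM in ApoE-/- libraries, and the groups did not overlap either. The parts of the genes that the null alleles lack were not stated, so these counts do not check the genotypes. The ApoE-/- libraries differed far more from each other than the double mutants did: the biological coefficient of variation (edgeR's estimate of the relative spread between samples) was 0.209 among double mutants and 0.590 among ApoE-/- libraries. ApoE-/- 1 was also the only library with high Xist, the RNA of X inactivation, at 474 CPM, against 0.497 to 6.21 CPM in the other 5 libraries. The Y-linked gene Ddx3y had 0.143 CPM in ApoE-/- 1, against 70.1 to 136 CPM in the other 5. All 10 smooth muscle markers, those that define the labelled tissue, were tested and present. Their summed level was 10155, 8943 and 9849 CPM in double mutants, against 4493, 19960 and 28768 CPM in ApoE-/- 1, 2 and 3. Of 19 kidney tubule markers, 9 held no count in any ApoE-/- library. By edgeR's quasi-likelihood test 12 of the 19 were called higher in double mutants and by DESeq2 all 19, against 1.14% and 6.25% of all genes. Their sums were 977, 929 and 991 CPM in double mutants, against 245, 240 and 191 CPM in ApoE-/- libraries, where most of it was Aqp1, which vessels also express.

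Aortas of both groups expressed Hox genes along most of each cluster, with few or no counts of paralogs 12 and 13. The 3 double mutant libraries were nearly alike in Hox level, at 181, 184 and 183 CPM summed over the 39 genes, whereas the ApoE-/- libraries held 218, 160 and 386 CPM. The double mutant sums therefore lay inside the ApoE-/- range. Of the 39 genes, 30 had enough counts to be tested, 9 did not, and 5 of those 9 (Hoxb13, Hoxc13, Hoxd1, Hoxd12 and Hoxd13) held no count in any library. The other 4 untested genes were Hoxa13, Hoxb1, Hoxc12 and Hoxd11. Hoxa13, a gene of digits and the genital tract, had 0 counts in each double mutant, against 12, 0 and 36 counts in ApoE-/- 1, 2 and 3. Hoxb1, which patterns the fourth segment of the hindbrain, had 0 counts in each double mutant, against 74 counts in ApoE-/- 1 and 0 in the other ApoE-/- libraries. Hoxc12 had 17 counts in ApoE-/- 3 alone, and Hoxd11 had 4 counts in double mutant 1 and 3 in ApoE-/- 2.

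The Hoxa and Hoxb clusters carried most of the signal. Hoxa genes made up 42.4%, 45.6% and 43.6% of Hox counts in double mutants, against 43.9%, 50.8% and 44.4% in ApoE-/- libraries, and Hoxb genes 37.6%, 35.4% and 35.7% in double mutants, against 32.9%, 43.4% and 41.4% in ApoE-/- libraries. The Hoxc share was 13.1%, 11.4% and 12.2% in double mutants, against 18.0%, 3.83% and 9.58% in ApoE-/- libraries. The Hoxd share was 6.96%, 7.58% and 8.54% in double mutants and 5.21%, 2.02% and 4.65% in ApoE-/- libraries. The Hoxd share was the only cluster share whose groups did not overlap, and it was higher in all 3 double mutants. No test was run on it. Its level in CPM was 12.6, 13.98 and 15.6 in double mutants, against 11.4, 3.24 and 17.9 in ApoE-/- libraries, which does overlap. Per kilobase of transcript, Hoxa7, a middle paralog of thoracic vertebrae, stood first in all 6 libraries, with 19.2, 20.9 and 21.6 CPM per kilobase in double mutants and 37.6, 15.2 and 43.4 CPM per kilobase in ApoE-/- libraries. That rank rests on the short length used for Hoxa7, 807 bases, a median over its annotated transcripts. In CPM Hoxa3 was above Hoxa7 in double mutants 1 and 2 and in ApoE-/- 2 and 3. It was below Hoxa7 in double mutant 3 and in ApoE-/- 1.

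**Figure D1:**
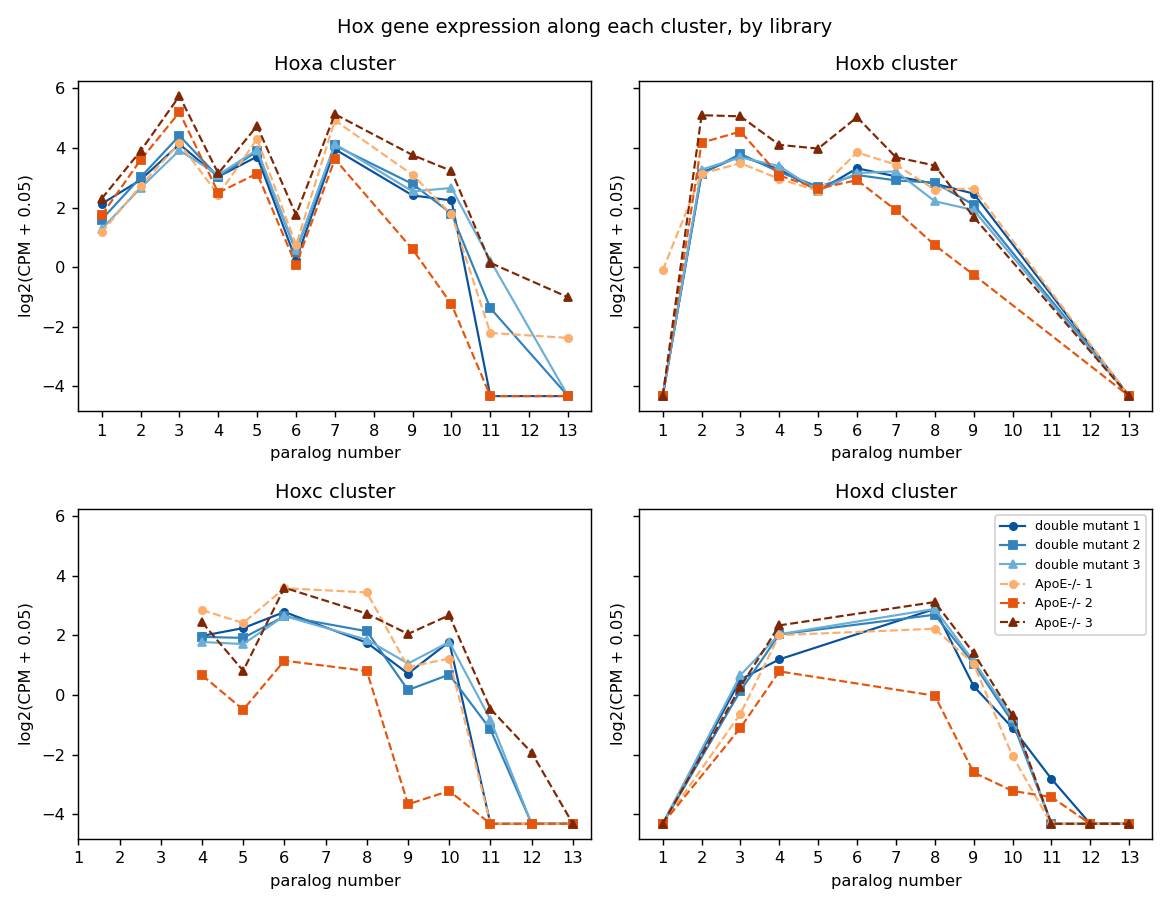
Level of each Hox gene, as log2 of CPM plus 0.05, against its paralog number, with 1 panel for each cluster and 1 line for each library. The double mutant lines nearly coincide up to paralog 9, while the ApoE-/- 2 line drops away from the others at high paralog numbers in all 4 clusters.

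No Hox gene passed the test of double mutants against ApoE-/- mice. By edgeR's quasi-likelihood test with Benjamini-Hochberg adjustment over 19833 genes, 0 of 30 were called higher, where 1.14% of all genes were, and 0 of 30 lower, where 0.0605% were. At an unadjusted p under 0.05, 2 of 30 (Hoxa3 and Hoxb2) were lower and none higher, against 7.03% of all genes lower and 15.9% in either direction. DESeq2 also called 0 of 30 in each direction, where it called 6.25% of all genes higher and 2.34% lower. In none of the 30 did the groups separate, whereas they did in 26.4% of all genes tested (14.9% with double mutants above and 11.5% below). For 24 of 30, or 80%, all 3 double mutants lay inside the range of the ApoE-/- libraries, against 37.6% of all genes. The median log2 fold change over the 30 genes was -0.16, beside -0.05 over all genes tested, with 11 genes above 0 and 19 below.

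The 3 smallest p-values were those of the anterior genes Hoxa3, Hoxb2 and Hoxb3. Hoxa3, which the third pharyngeal arch and its artery need, had 17.4, 21.2 and 15.1 CPM in double mutants, against 17.8, 36.6 and 53.4 CPM in ApoE-/- 1, 2 and 3. Hoxb2, a gene of the hindbrain and neural crest, had 8.94, 8.67 and 9.63 CPM in double mutants, against 8.71, 18.0 and 34.2 CPM in ApoE-/- libraries. In both genes ApoE-/- 1 stood at the level of the double mutants and the other 2 ApoE-/- libraries stood well above it. Averages were 17.9 ± 3.12 CPM in double mutants and 35.9 ± 17.8 CPM in ApoE-/- libraries for Hoxa3 (SD, n = 3 each), a log2 fold change of -1.005 with SE 0.39 and adjusted p = 0.291. For Hoxb2 they were 9.08 ± 0.497 CPM in double mutants and 20.3 ± 12.9 CPM in ApoE-/- libraries (SD, n = 3 each), a log2 fold change of -1.16 with SE 0.47 and adjusted p = 0.302. Reads of Hoxa3 are hard to assign, since its annotated span (chromosome 6, 52169062 to 52213336, minus strand) contains Hoxa4, Hoxa5 and Hoxa6 on the same strand; Hoxa2 and Hoxb2 overlap no other Hox gene.

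Hoxb3, which patterns the pharyngeal region together with Hoxa3, showed a similar pattern, with 13.2, 13.9 and 12.8 CPM in double mutants, against 11.2, 23.4 and 33.3 CPM in ApoE-/- libraries (log2 fold change -0.77, SE 0.38, adjusted p = 0.375). Hoxa2, the selector gene of the second pharyngeal arch whose promoter is printed above, had 7.56, 8.02 and 6.26 CPM in double mutants, against 6.59, 12.05 and 14.9 CPM in ApoE-/- libraries (log2 fold change -0.62, SE 0.33, adjusted p = 0.404). In all 4 genes ApoE-/- 1 was near the double mutants, and ApoE-/- 2 and 3 lay above them. Hoxd3, a low gene of neck vertebrae, ran the other way, with 1.38, 1.05 and 1.54 CPM in double mutants, against 0.597, 0.416 and 1.16 CPM in ApoE-/- libraries (log2 fold change 0.87, SE 0.51, adjusted p = 0.439).

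Of the edgeR fits, only the one without ApoE-/- 1 called any of these anterior genes. Without ApoE-/- 1, 4 of 30 Hox genes (Hoxa2, Hoxa3, Hoxb2 and Hoxb3) fell, with log2 fold changes of -0.89, -1.33, -1.53 and -1.09 and adjusted p-values of 0.0268, 0.00993, 0.0133 and 0.0103 in edgeR's quasi-likelihood test. Over all genes that same fit called 12.8% lower and 13.1% higher, so 4 of 30 is near the share of all genes. With limma-voom and sample weights, which give a deviant library less weight, 3 of 30 (Hoxa3, Hoxb2 and Hoxb3) were lower and 0 higher, against 7.5% and 9.39% of all genes. The summed level of smooth muscle markers was lowest in ApoE-/- 1, below that of the double mutants, and highest in ApoE-/- 3. The double mutants lay below ApoE-/- 2 and 3. In the fit without ApoE-/- 1, 9 of 10 smooth muscle markers fell as well. With all 6 libraries edgeR and DESeq2 called none of the 10, and limma-voom with sample weights called 5 lower. ApoE-/- 1 was besides the library with high Xist and little Ddx3y. The part of smooth muscle content and of the sex-linked difference in the Hox values was not tested.

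**Figure D2:**
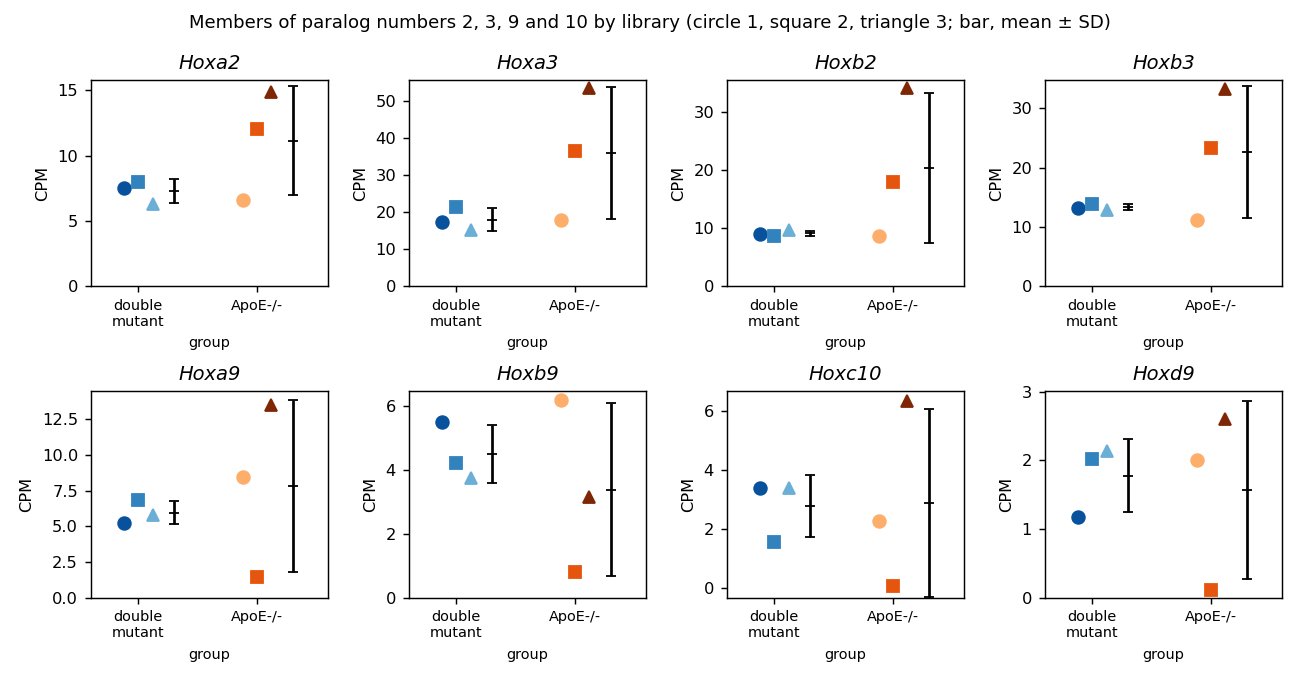
Level in CPM of 8 Hox genes in each library, 4 anterior (Hoxa2, Hoxa3, Hoxb2 and Hoxb3) and 4 posterior (Hoxa9, Hoxb9, Hoxc10 and Hoxd9), with double mutants at the left and ApoE-/- libraries at the right of each panel; bars give the mean ± SD of 3 libraries. Among the anterior genes ApoE-/- 1 sits with the double mutants, at 17.8 CPM of Hoxa3, and among the posterior genes ApoE-/- 2 sits near 0, at 0.0574 CPM of Hoxc10.

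Paralogs 4 to 7, the middle of the code, were the most uniform members among double mutants. All 12 were tested, and in 11 of 12 the double mutants lay inside the ApoE-/- range. Hoxa5, which lung and the sternum need, had 13.04, 14.8 and 15.3 CPM in double mutants, against 19.7, 8.78 and 26.7 CPM in ApoE-/- libraries. Hoxa7 had 15.5, 16.9 and 17.5 CPM in double mutants, against 30.4, 12.3 and 35.0 CPM in ApoE-/- libraries (log2 fold change -0.64, SE 0.38, adjusted p = 0.438). In both genes ApoE-/- 2 was lowest of the 6 libraries and ApoE-/- 3 highest. Hoxb6, a gene of the thoracic region, had 9.91, 8.48 and 8.87 CPM in double mutants, against 14.4, 7.52 and 32.6 CPM in ApoE-/- libraries (log2 fold change -1.0004, SE 0.51, adjusted p = 0.385). Hoxb5, which marks the trunk and gut wall, had 5.83, 6.47 and 5.82 CPM in double mutants, against 5.85, 6.18 and 15.7 CPM in ApoE-/- libraries, so that a single ApoE-/- library set its log2 fold change of -0.62. Hoxb5 was the 1 gene of the 12 outside the ApoE-/- range. Hoxa4, expressed in the neck and upper trunk, had 8.16, 8.12 and 8.52 CPM in double mutants, against 5.32, 5.61 and 8.80 CPM in ApoE-/- libraries (log2 fold change 0.33, SE 0.27, adjusted p = 0.569), with double mutants above 2 of the 3. Of the other middle genes, Hoxa6 ranged from 1.13 to 1.44 CPM in double mutants and from 1.00 to 3.33 CPM in ApoE-/- libraries, and Hoxb4 from 9.09 to 10.4 CPM and from 7.73 to 17.1 CPM in the same order of groups. Hoxb7 ranged from 7.47 to 9.24 CPM in double mutants and from 3.71 to 12.8 CPM in ApoE-/- libraries, and Hoxc5 from 3.21 to 4.68 CPM and from 0.660 to 5.27 CPM likewise.

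The Hoxc and Hoxd members of the middle group showed a deep trough in ApoE-/- 2. Hoxc6, a thoracic gene, had 6.82, 6.17 and 6.21 CPM in double mutants, against 11.9, 2.17 and 12.03 CPM in ApoE-/- 1, 2 and 3. Hoxc4 had 3.89, 3.80 and 3.37 CPM in double mutants, against 7.14, 1.53 and 5.37 CPM in ApoE-/- libraries. Hoxd4 had 2.23, 4.03 and 4.05 CPM in double mutants, against 3.96, 1.68 and 4.98 CPM in ApoE-/- libraries. For these 3 genes the double mutants lay inside the ApoE-/- range and the log2 fold changes were -0.44, -0.34 and -0.04. Adjusted p-values by edgeR's quasi-likelihood test were 0.735, 0.777 and 0.973. The annotated span of Hoxc5 contains Hoxc6, Hoxc8, Hoxc9 and Hoxc10 on the same strand, and those of Hoxd3 and Hoxd4 overlap each other, so reads could be split between them.

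Paralogs 8 to 11, the posterior end, set ApoE-/- 2 apart from the other 5 libraries, as the lowest in 10 of 12 genes, and in none of the 12 did the genotypes separate. Hoxc8, a gene of thoracic vertebrae, had 3.32, 4.35 and 3.56 CPM in double mutants, against 10.8, 1.69 and 6.56 CPM in ApoE-/- libraries (log2 fold change -0.76, SE 0.62, adjusted p = 0.570). Hoxd8 had 7.33, 6.40 and 7.33 CPM in double mutants, against 4.61, 0.932 and 8.61 CPM in ApoE-/- libraries (log2 fold change 0.57, SE 0.70, adjusted p = 0.704). Hoxd9 had 1.18, 2.02 and 2.14 CPM in double mutants, against 2.00, 0.115 and 2.60 CPM in ApoE-/- libraries (log2 fold change 0.17, SE 0.94, adjusted p = 0.942). The low value of ApoE-/- 2 recurred in each of these genes.

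Further posterior genes are given because of that library, chosen after their values were seen. Hoxa9, which blood stem cells and the trunk use, had 5.25, 6.86 and 5.77 CPM in double mutants, against 8.50, 1.46 and 13.5 CPM in ApoE-/- libraries. Hoxb8 had 6.91, 7.07 and 4.58 CPM in double mutants, against 6.01, 1.62 and 10.6 CPM in ApoE-/- libraries. Hoxb9 had 5.48, 4.22 and 3.72 CPM in double mutants, against 6.18, 0.789 and 3.16 CPM in ApoE-/- libraries. In each of these 3 genes ApoE-/- 2 was the lowest library. Hoxa10, a gene of the uterus and lumbar region, had 4.68, 3.42 and 6.26 CPM in double mutants, against 3.37, 0.373 and 9.32 CPM in ApoE-/- libraries. Hoxc10, a marker of lower-body fat and hindlimb tissue, had 3.39, 1.55 and 3.37 CPM in double mutants, against 2.28, 0.0574 and 6.33 CPM in ApoE-/- libraries. Hoxc9 rested on 69, 51 and 87 counts in double mutants, against 156, 2 and 328 counts in ApoE-/- libraries. The remaining posterior genes were at or under 1.12 CPM in every library. Hoxa11 and Hoxc11, genes of the limb and urogenital tract, held no count in double mutant 1 or in ApoE-/- 2, and Hoxc11 none in ApoE-/- 1 either. Their highest values were 1.12 CPM in double mutant 3 and 0.671 CPM in ApoE-/- 3. Hoxd10 had 0.415, 0.483 and 0.535 CPM in double mutants, against 0.191, 0.0574 and 0.572 CPM in ApoE-/- libraries.

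Counted over members, ApoE-/- 2 was the lowest of the 6 libraries in 20 of 30 genes, or 66.7%, against 18.8% of all genes tested. By paralog it was lowest in 1 of 6 genes of paralogs 1 to 3, in 9 of 12 of paralogs 4 to 7 and in 10 of 12 of paralogs 8 to 11, the other 2 being Hoxa11 and Hoxc11, in which other libraries also held no count. ApoE-/- 3 was highest in 24 of 30, against 27.6% of all genes tested. Spread among ApoE-/- libraries was widest at the posterior end. The median SD of log2 CPM was 0.217 in double mutants and 0.757 in ApoE-/- libraries for paralogs 1 to 3, and 0.112 in double mutants and 0.841 in ApoE-/- libraries for paralogs 4 to 7. For paralogs 8 to 11 it was 0.391 in double mutants and 1.99 in ApoE-/- libraries, beside 0.165 in double mutants and 0.508 in ApoE-/- libraries over all genes tested.

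Shares within a library give the same picture without any scaling between libraries. Paralogs 8 to 13 gave 21.8%, 20.7% and 22.4% of Hox counts in double mutants, against 21.1%, 4.47% and 17.6% in ApoE-/- 1, 2 and 3. The exact binomial 95% interval for ApoE-/- 2 was 4.10% to 4.87%, of 11183 Hox counts. Paralog 3 alone gave 17.6%, 19.6% and 16.1% of Hox counts in double mutants, against 13.6%, 37.6% and 22.8% in ApoE-/- libraries. The mean paralog number per Hox count was 5.33, 5.26 and 5.49 in double mutants, against 5.63, 3.92 and 5.08 in ApoE-/- libraries. In CPM, paralogs 8 to 13 came to 39.6, 38.2 and 40.9 in double mutants, against 46.1, 7.17 and 67.7 in ApoE-/- libraries. Paralogs 1 to 7 came to 142, 146 and 142 CPM in double mutants, against 172, 153 and 318 CPM in ApoE-/- libraries. ApoE-/- 2 was thus low in posterior transcripts and not in the sum of paralogs 1 to 7. That sum hid a shortfall: paralogs 4, 5, 6 and 7 were each lowest in ApoE-/- 2, at 17.2, 15.6, 10.7 and 16.0 CPM. In double mutants they came to 23.9 to 26.4, 23.5 to 24.9, 16.0 to 17.9 and 23.7 to 26.7 CPM. Paralog 3 came to 60.4 CPM in ApoE-/- 2, against 29.4 to 36.2 CPM in double mutants. In the share of paralogs 8 to 13 the double mutants sat near ApoE-/- 1. The summed level of 9 adipocyte markers was 6881, 7057 and 6538 CPM in double mutants, against 8565, 1540 and 1099 CPM in ApoE-/- libraries. The part of fat in the Hox values was not tested.

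**Figure D3:**
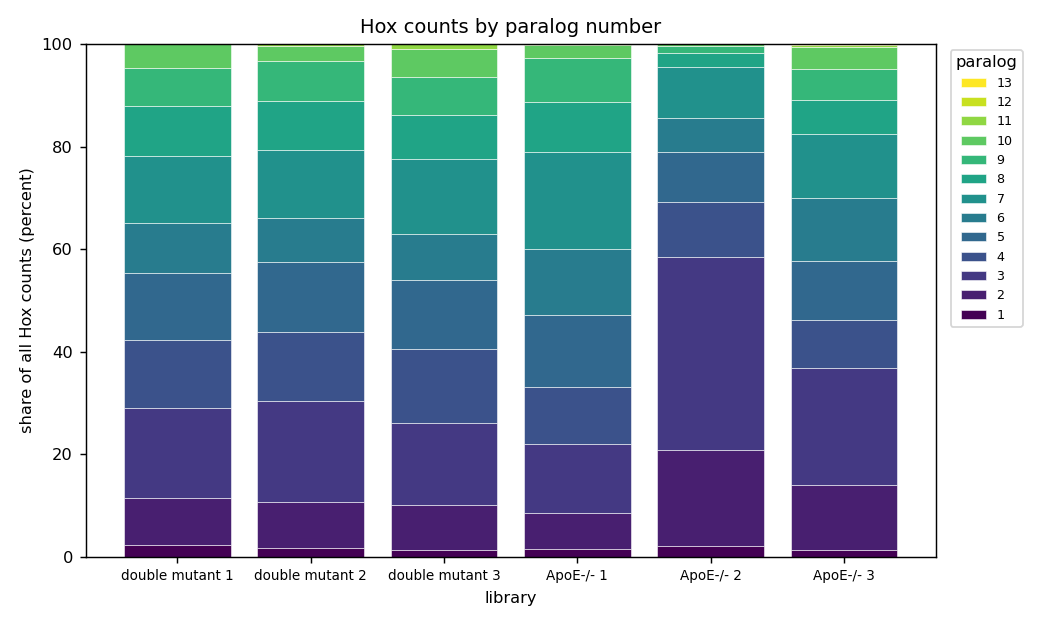
Percent of all Hox counts from each paralog number, stacked from anterior to posterior, with 1 bar for each library and double mutants at the left. ApoE-/- 2 has 37.6% from paralog 3 and 4.47% from paralogs 8 to 13, while the 3 double mutants have 20.7% to 22.4% from paralogs 8 to 13.

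The posterior shortfall of ApoE-/- 2 appeared in each cluster taken alone. The ratio of Hoxa9 to Hoxa3 counts was 0.302, 0.323 and 0.383 in double mutants, against 0.478, 0.0400 and 0.253 in ApoE-/- libraries. The ratio of Hoxb9 to Hoxb3 was 0.415, 0.304 and 0.290 in double mutants, against 0.552, 0.0337 and 0.0948 in ApoE-/- libraries, so that in the Hoxb cluster ApoE-/- 3 was low as well. The ratio of Hoxc9 to Hoxc4 was 0.408, 0.282 and 0.600 in double mutants, against 0.261, 0.0187 and 0.759 in ApoE-/- libraries. The ratio of Hoxd9 to Hoxd4 was the steadiest, at 0.526, 0.5 and 0.529 in double mutants, against 0.506, 0.0684 and 0.521 in ApoE-/- libraries. The lowest value of each ratio was that of ApoE-/- 2. In none of the 4 ratios did the groups separate.

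Pooled over the clusters, the median fold change was below 0 for low paralog numbers and above 0 for high ones. The median log2 fold change was -0.69 over the 6 tested genes of paralogs 1 to 3, -0.35 over the 12 of paralogs 4 to 7 and 0.16 over the 12 of paralogs 8 to 11. Across the 30 genes, Spearman's rho of log2 fold change with paralog number was 0.40 and Pearson's r was 0.39. This is a description, since neighbouring genes share libraries, cells and in part reads, and genes are not independent replicates. The order did not hold within every cluster. In Hoxd the log2 fold changes were 0.87 for Hoxd3, -0.04 for Hoxd4, 0.57 for Hoxd8, 0.17 for Hoxd9 and 0.80 for Hoxd10. In Hoxc they were -0.34 for Hoxc4, 0.60 for Hoxc5, -0.44 for Hoxc6, -0.76 for Hoxc8, -0.35 for Hoxc9, -0.06 for Hoxc10 and 0.43 for Hoxc11. The sign of the posterior median depended on single libraries: the median of paralogs 8 to 11 was -0.38 without ApoE-/- 2, -0.08 without ApoE-/- 1 and -0.13 without double mutant 3. It was 0.99 without ApoE-/- 3. The median of paralogs 1 to 3 was below 0 with each library left out, at -0.64 without ApoE-/- 2, -0.37 without ApoE-/- 3 and -0.99 without ApoE-/- 1. The median of paralogs 4 to 7 was -0.72 without ApoE-/- 2 and 0.01 without ApoE-/- 3, and 0.35 with limma-voom and sample weights. With all 6 libraries the posterior median was 0.93 with limma-voom, 2.26 with sample weights and 0.74 with the sample number as a block.

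**Figure D4:**
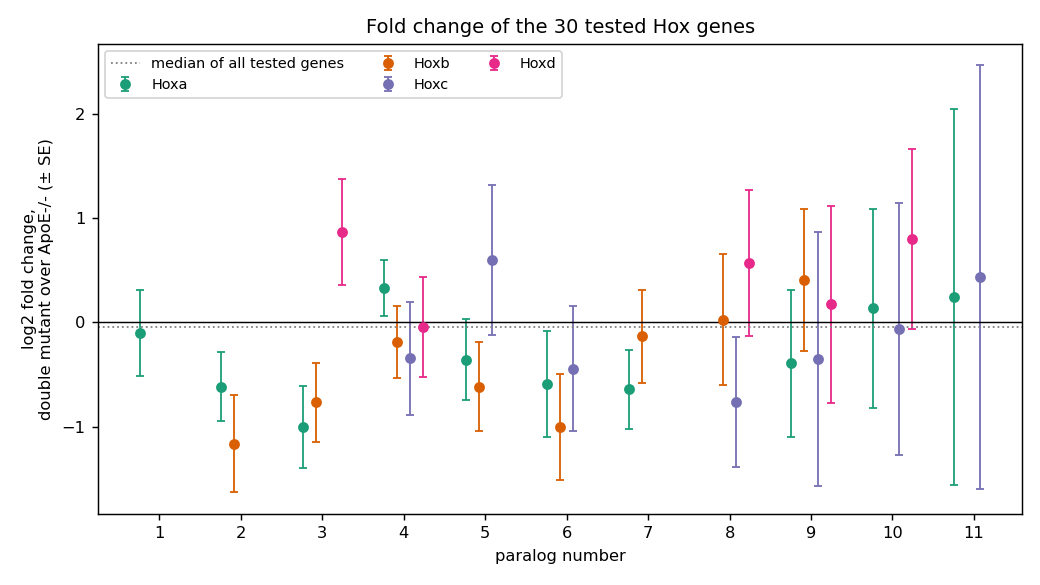
Log2 fold change (double mutants over ApoE-/-) with its SE for the 30 tested Hox genes against paralog number, coloured by cluster; the line at 0 marks equal levels. Most genes of paralogs 2 to 7 lie below 0, and the error bars widen towards paralog 11, where Hoxc11 has an SE of 2.03.

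**Figure D5:**
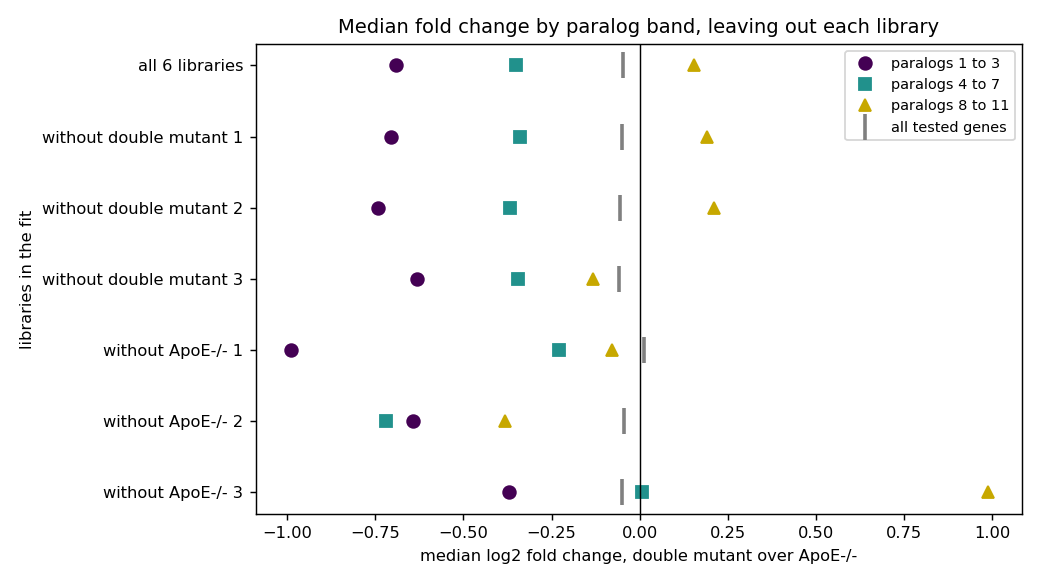
Median log2 fold change of paralogs 1 to 3, 4 to 7, 8 to 11 and of all genes tested, with all 6 libraries and with each library left out. The posterior median runs from -0.38 without ApoE-/- 2 to 0.99 without ApoE-/- 3, whereas the anterior median is below 0 in every fit.

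Noncoding genes of the clusters gave no call either. Of 43 annotated within the cluster bounds, 14 were tested and 0 were called by edgeR's quasi-likelihood test or by DESeq2, with 0 at an unadjusted p under 0.05. Without ApoE-/- 1 and with sample weights 1 fell, Hoxaas2, against 12.8% and 7.5% of all genes. The smallest adjusted p was 0.329 for Hoxaas2, an RNA whose span overlaps that of Hoxa3 on the opposite strand, with 285, 279 and 208 counts in double mutants and 378, 1100 and 1517 counts in ApoE-/- libraries (log2 fold change -1.18, SE 0.51). As for Hoxa3, ApoE-/- 2 and 3 held the most, and since the strand setting of the counting was not stated, reads of the overlap could be shared. Hotair, a noncoding RNA between Hoxc11 and Hoxc12, held 0 counts in all double mutants and in ApoE-/- 2, and 8 and 32 counts in ApoE-/- 1 and 3. Hoxa11os, transcribed across Hoxa11, held 22, 5 and 30 counts in double mutants and 31, 0 and 65 in ApoE-/- libraries. Hoxa11os was therefore lowest in ApoE-/- 2, whereas Hotair did not set that library apart from the double mutants.

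Genes that work with or act on the Hox clusters were set beside them. None of 9 tested partners of the TALE class (Pbx, Meis and Pknox proteins, which bind DNA together with Hox proteins) was called by edgeR's quasi-likelihood test or by DESeq2, 0 had an unadjusted p under 0.05, and their median log2 fold change was -0.32. Without ApoE-/- 1, 3 of the 9 fell, Meis2 among them, and with sample weights 2 did, against 12.8% and 7.5% of all genes. Meis2, a partner found in many mesenchymal cells, had 24.7, 25.8 and 24.8 CPM in double mutants, against 22.1, 37.7 and 48.3 CPM in ApoE-/- libraries. None of 17 Polycomb and trithorax genes, whose proteins hold Hox genes silent or active, was called by edgeR's quasi-likelihood test, and the median was -0.14. At an unadjusted p under 0.05 there were 3 of 17, against 15.9% of all genes, and in 5 of 17 all double mutants lay below all ApoE-/- libraries, against 11.5% of all genes. DESeq2 called 1 lower, Bmi1, and without ApoE-/- 1 there were 3 lower, Bmi1 among them, against 2.34% and 12.8% of all genes. With sample weights 1 other gene was lower, against 7.5% of all genes. Bmi1, a Polycomb subunit, had 48.6, 48.7 and 45.3 CPM in double mutants, against 79.1, 59.1 and 74.5 CPM in ApoE-/- libraries (log2 fold change -0.58, adjusted p = 0.162), with all double mutants lower. Kdm6a, a demethylase encoded on the X chromosome, had 20.9, 18.2 and 19.9 CPM in double mutants, against 39.1, 27.3 and 24.7 CPM in ApoE-/- libraries, the highest value being in the library with high Xist.

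Retinoic acid switches on anterior Hox genes in the embryo. None of 13 tested genes of its synthesis, breakdown and receptors was called by edgeR's quasi-likelihood test. At an unadjusted p under 0.05 there were 3, against 15.9% of all genes, and the median log2 fold change was 0.04. DESeq2 called 1 lower, Rarb, which was also lower without ApoE-/- 1 (2 lower and 1 higher of the 13) and with sample weights (1 lower and 2 higher). Over all genes these fits called 2.34% lower and 6.25% higher with DESeq2, 12.8% and 13.1% without ApoE-/- 1, and 7.5% and 9.39% with sample weights. Rarb, a receptor that retinoic acid itself induces, had 3.64, 3.30 and 2.89 CPM in double mutants, against 4.797, 7.44 and 6.08 CPM in ApoE-/- libraries (log2 fold change -0.90, adjusted p = 0.217). Cyp26b1, which degrades retinoic acid, had 9.68, 9.64 and 9.26 CPM in double mutants, against 17.5, 13.7 and 12.8 CPM in ApoE-/- libraries (log2 fold change -0.62, adjusted p = 0.212). Both were lower in all 3 double mutants without passing edgeR's test. Over the 13 genes, all double mutants lay above all ApoE-/- libraries in 3 and below in 2, against 14.9% and 11.5% of all genes. Of 7 tested genes among the ParaHox and Evx genes and the neighbours that flank the clusters, 0 were called by edgeR. At an unadjusted p under 0.05 there was 1, against 15.9% of all genes. DESeq2 called 1 higher, Atp5g1. It was higher also without ApoE-/- 1 (3 higher and 1 lower of the 7) and with sample weights (2 higher and 1 lower). Atp5g1, which lies beside the Hoxb cluster, had the smallest p, with 22.3, 27.5 and 23.4 CPM in double mutants, against 11.2, 12.9 and 16.6 CPM in ApoE-/- libraries (log2 fold change 0.85, adjusted p = 0.121). Of 26 other regional transcription factors tested, 0 were called by edgeR, with 5 at an unadjusted p under 0.05, against 15.9% of all genes. DESeq2 called 2 of them higher and 1 lower, and sample weights gave 1 higher and 3 lower. The fit without ApoE-/- 1 gave 1 higher and 7 lower, against 13.1% and 12.8% of all genes. The shares given above for all genes in these fits apply to this list and to the flanking genes. Of 11 tested kidney developmental factors edgeR called 2 higher, against 1.14% of all genes, and neither held a count in any ApoE-/- library. DESeq2 called 5 higher, against 6.25% of all genes. Without any 1 of the double mutants, edgeR called 0 of all genes in each direction. Kidney also expresses Hox genes of paralogs 9 to 11, whose levels are given above. The part of kidney RNA in the Hox values of double mutants was not tested.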

How the data were processed

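RNA-seq was run on 6 mouse aorta samples, 3 IL16-/-ApoE-/- and 3 ApoE-/-, grouped and numbered by their titles. Per the labels' protocols, mRNA was selected by its poly(A) tail and libraries kept the strand by UDG digestion. The authors deposited a table of raw counts, 1 column to a sample. Cutadapt, HISAT2 and StringTie were used, per the submitters' processing notes, which give no versions. The sources name no build, annotation, counting program or strand setting. Hence the values of overlapping and antisense genes are uncertain, and 15 of 39 Hox genes overlap a gene on the same strand and 14 one on the other strand. Names, positions and transcript lengths came from GENCODE M21 (GRCm38), which matched 55141 of 55401 IDs.

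Genes were filtered with filterByExpr (minimum count 10, minimum total 15), scaled by TMM and compared with edgeR's quasi-likelihood test (estimateDisp, robust glmQLFit, two-sided, no covariate). P-values were adjusted by Benjamini-Hochberg over all 19833 genes tested, with a threshold of 0.05; standard errors were taken as the absolute log2 fold change over the root of F. CPM are TMM-scaled, log2 CPM used a prior count of 2, and levels between genes were compared per kilobase. Same-group libraries differed beyond counting error (chi-square per degree of freedom 14.1 to 32.7 among double mutants and 316 to 1001 among ApoE-/- libraries), so none was counted as a repeat. Values by library are given for the 10 tested members with the smallest p, for the 3 with the highest mean CPM in each cluster and for others named as chosen later; from each of 17 other lists, up to 4 called genes or up to 2 with the smallest p could be named. Values of single genes left out of the text are not reported here. Members and lists were chosen with earlier results of these data known. The test was checked on data simulated with the same spread in all libraries, smaller than in either group here. That check therefore does not measure its power in these data. R 4.3.3, edgeR 4.0.16, limma 3.58.1, DESeq2 1.42.0, Python 3.11.15 and matplotlib 3.10.9 were used, and 16 other settings were tried.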

Additional observations from a re-analysis of the deposited data

How the results depend on the processing

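Hox genes called higher numbered 0 in all 16 other settings, and Hox genes called lower numbered 0 in 14 of them, 4 without ApoE-/- 1 and 3 with limma-voom and sample weights. Leaving out 1 library at a time gave 0 to 0 Hox genes higher and 0 to 4 lower, with a median log2 fold change of -0.53 to 0.26 over Hox genes. That median turned positive with limma-voom (0.0151), with sample weights (0.66), with the replicate block (0.0194) and without ApoE-/- 3 (0.26). Over all genes, calls higher and lower in double mutants were 1235 and 462 with DESeq2, 386 and 23 with limma-voom, 1863 and 1488 with sample weights, 141 and 21 with the length trend removed, and 0 to 2651 and 0 to 2580 when 1 library was left out. The causes were not tested.

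The sample numbers gave no sign of a pairing (correlations of same-numbered deviations -0.04, -0.03 and -0.0095). Differently numbered pairs gave -0.075 to 0.090, and so few libraries cannot exclude a shared batch. A fit with the sample numbers as a replicate block called 0 and 0 genes.

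The share of Hox counts from the posterior end moved with where that end begins. Counted as paralogs 9 to 13 it was 12.2%, 11.04% and 13.9% in double mutants, against 11.3%, 1.82% and 10.9% in ApoE-/- libraries; as paralogs 7 to 13, 34.9%, 33.9% and 37.1%, against 40.01%, 14.5% and 29.96%; per kilobase from paralog 8, 19.1%, 18.1% and 19.2%, against 17.0%, 4.18% and 15.3%. ApoE-/- 2 was lowest in each.

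Single genes changed sign: Hoxb5 without ApoE-/- 3 (-0.86 to 0.0019 over the libraries left out); Hoxa5 with sample weights (0.26) and without ApoE-/- 3 (-0.68 to 0.0094); Hoxc8 (0.45) and Hoxc6 (0.81) with sample weights; Hoxc4 with sample weights (0.67) and without ApoE-/- 1 (-0.76 to 0.0932); Hoxd9 without ApoE-/- 2 (-0.37 to 0.74). Hoxd4 did so with limma-voom (0.0247), sample weights (0.53), the replicate block (0.0310) and without ApoE-/- 1 (0.0430), ApoE-/- 3 (0.28) or double mutant 1 (0.19), with a range of -0.37 to 0.28. Depth limits genes with few or no counts, where a count of 0 still allows 3. The SE was 2.03 for Hoxc11 and 0.86 for Hoxd10, both low genes. Wide errors were not confined to such genes, with 1.21 for Hoxc10 and 0.95 for Hoxa10, against 0.51 for the lower Hoxd3.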

Other observations

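Marker lists of other cells that an aorta sample can hold gave values beyond those set beside the Hox genes. Of 9 cardiac muscle markers 2 were called higher in double mutants by edgeR's quasi-likelihood test, Tnnt2 (adjusted p = 0.0420) and Sln (adjusted p = 0.0439), and 7 by DESeq2. Over all genes these tests called 1.14% and 6.25% higher. Tnnt2, a troponin subunit, had 57.5, 36.5 and 67.1 CPM in double mutants, against 11.7, 13.7 and 18.0 CPM in ApoE-/- libraries. Of 9 adipocyte markers 1, Lep, was called higher (adjusted p = 0.0168 by edgeR), with 22.0, 18.7 and 19.3 CPM in double mutants, against 0.871, 1.09 and 2.05 CPM in ApoE-/- libraries. These 3 genes were not called without ApoE-/- 2, without any 1 of the double mutants or with the replicate block, and Tnnt2 and Sln were not called without ApoE-/- 3 or with the length trend removed. Without ApoE-/- 1, 8 of the 9 adipocyte markers were called higher, against 13.1% of all genes. None of 8 skeletal muscle, 9 Schwann cell and neuron, 8 endothelial, 10 fibroblast, 8 macrophage, 7 brown fat, 8 podocyte and 10 smooth muscle markers was called in either direction by edgeR. At an unadjusted p under 0.05 these lists held 8, 9, 3, 0, 1, 1, 4 and 0 genes in the same order, against 15.9% of all genes. DESeq2 called 6, 7, 2, 0, 0, 1, 2 and 0 higher, against 6.25% of all genes, and 0 lower. The summed level of the Schwann cell and neuron markers was 272, 257 and 186 CPM in double mutants, against 81.9, 37.9 and 49.1 CPM in ApoE-/- libraries. The summed level of the 9 TALE genes was 195, 201 and 193 CPM in double mutants, against 156, 279 and 311 CPM in ApoE-/- libraries, lowest in ApoE-/- 1. Hoxa3 and Hoxb2 were also lowest in ApoE-/- 1 among the ApoE-/- libraries, but a double mutant was lower still.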
